A study of Mus musculus with 6 samples.

Results

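The carboxylesterases described here are 8 genes of mouse chromosome 8, *Ces1b*, *Ces1c*, *Ces1d*, *Ces1e*, *Ces1f*, *Ces1g*, *Ces2e* and *Ces2g*, taken by symbol from 37384 genes with a raw count in adipocytes with and without *Lats1/2* deletion. They were chosen by their measured counts in L1L2-AKO against L1L2-FF, a difference already known, so these values are given below as a description, with no p-value. Their family holds 12 further genes in the same table, which are given beside them. RNA was read from floated adipocytes of inguinal subcutaneous white adipose tissue (scWAT) of male mice at postnatal day 7. The 3 L1L2-FF libraries came from *Lats1*f/f*Lats2*f/f mice without Cre, and the 3 L1L2-AKO libraries from mice with the same floxed alleles and *Adipoq*-Cre. Both genotypes therefore carry the floxed alleles, and Cre is driven by the promoter of the adipocyte gene *Adipoq*. Each library was a pool of 4 mice, and the L1L2-FF mice were described as control littermates.

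Carboxylesterases are serine hydrolases of the endoplasmic reticulum that cleave esters, amides and neutral lipids, and they are best known from liver and intestine, where they clear drugs and other xenobiotics. The mouse genome carries many tandem copies of the Ces1 and Ces2 types. In adipocytes, *Ces1d* (also called triacylglycerol hydrolase) contributes to basal hydrolysis of stored triacylglycerol, and *Ces1f* encodes a related triacylglycerol hydrolase. *Ces1c* encodes the main carboxylesterase of mouse plasma, *Ces1e* encodes egasyn, which holds beta-glucuronidase in the endoplasmic reticulum, and *Ces1g* encodes a liver enzyme of lipid metabolism. Ces2 enzymes prefer esters with a large alcohol group and a small acyl group.

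Because reads of near copies can be assigned to the wrong gene, the coding sequence around the catalytic serine is shown first. Each line gives 60 bases of the member's longest complete coding sequence in GENCODE M21, on the coding strand, with capitals at bases that differ from *Ces1d*. In each of the 8 members the stretch lay within exon 5.

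Ces1b: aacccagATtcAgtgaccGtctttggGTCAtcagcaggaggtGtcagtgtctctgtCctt
Ces1c: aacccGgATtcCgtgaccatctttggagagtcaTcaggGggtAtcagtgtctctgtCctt
Ces1d: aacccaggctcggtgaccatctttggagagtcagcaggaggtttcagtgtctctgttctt
Ces1e: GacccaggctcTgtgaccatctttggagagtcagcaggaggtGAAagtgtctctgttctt
Ces1f: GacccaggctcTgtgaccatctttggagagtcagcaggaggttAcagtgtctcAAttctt
Ces1g: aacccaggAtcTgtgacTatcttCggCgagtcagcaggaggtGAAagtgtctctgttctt
Ces2e: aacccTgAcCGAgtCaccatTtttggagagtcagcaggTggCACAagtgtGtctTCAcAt
Ces2g: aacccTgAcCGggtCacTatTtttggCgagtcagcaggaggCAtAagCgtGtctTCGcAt

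In mm10 the stretch of *Ces1d* lies at chr8:93187743-93187802 on the minus strand and that of *Ces1f* at chr8:93269974-93270033 on the minus strand. The stretches of *Ces2e* and *Ces2g* lie on the plus strand at chr8:104929791-104929850 and chr8:104964969-104965028. *Ces1e* and *Ces1f* each differed from *Ces1d* at 5 of the 60 bases, *Ces1c* and *Ces1g* at 8, *Ces1b* at 10, and both Ces2 members at 17. Over the whole coding sequence, identity ranged from 74.5% to 91.2% in the 15 pairs of Ces1 members and from 63.0% to 67.3% in the 12 pairs of a Ces1 with a Ces2 member. It was 78.5% between *Ces1d* and *Ces1f*, 82.9% between *Ces2e* and *Ces2g*, and highest between *Ces1b* and *Ces1c*.

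The last codons separate the members in another way. The carboxy-terminal signal that returns a carboxylesterase to the endoplasmic reticulum is histidine, any residue, glutamate and leucine. The lines below give the last 15 coding bases, stop codon included, with the codons of that signal in capitals.

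Ces1b: agagaacacaaatga
Ces1c: acagaacacaaatga
Ces1d: CATgttGAGCTCtga
Ces1e: CACactGAGCTGtga
Ces1f: CACaatGAGCTGtga
Ces1g: CATgttGAACTGtga
Ces2e: CACaaaGAGTTGtag
Ces2g: CACaaaGAGCTAtag

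The signal was encoded by 6 of the 8 members, all 4 that were counted in every library among them, and not by *Ces1b* or *Ces1c*.

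Sequence shared between genes set how far a count could be tied to 1 member. Of the 50-base stretches in the annotated transcripts of *Ces1d*, 1.08% also occurred in transcripts of another gene, and for *Ces1f* the share was 0.903%. The share was 1.67% for *Ces1g*, 2.97% for *Ces1e*, 3.30% for *Ces2e* and 3.12% for *Ces2g*. It was far larger for *Ces1b* at 11.6%, mostly with *Ces1c*, and for *Ces1c* at 13.0%, mostly with *Ces1b*. At 100 bases, shared stretches were found in *Ces1b* and *Ces1c* alone, at 1.29% and 1.03%. Only 0.173% of the 50-base stretches of *Ces1d* occurred in *Ces1f*, the pair that gave most of the counts. Counts of *Ces1b* and *Ces1c* are therefore uncertain. The Ces1 cluster also holds the unprocessed pseudogenes Gm45910 and Gm45727, and the gene model Gm45909 lies within *Ces1d* on the same strand. None of these has a row in the table used here.

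Total counts ran from 30548473 to 32107917 per library. Of the genes deleted, *Lats1* had 76.1, 94.3 and 78.4 CPM (counts scaled to library size) in L1L2-FF and 38.9, 41.2 and 40.5 CPM in L1L2-AKO, a fall of 1.04 on the log2 scale. *Lats2* had 74.9, 85.7 and 68.5 CPM in L1L2-FF and 96.2, 126 and 135 CPM in L1L2-AKO, and rose by 0.64 on the log2 scale. Adjusted p was 0.00131 for *Lats1* and 0.0278 for *Lats2* by edgeR's quasi-likelihood test, adjusted after Benjamini-Hochberg over all genes tested, and the *Lats2* call was lost without L1L2-AKO replicate 2 or 3 or L1L2-FF replicate 1 or 3. Over the alternatives, the adjusted p of *Lats2* from edgeR or DESeq2 ranged from 0.00310 to 0.104. The counts are of whole genes, so the floxed exons could not be read on their own. In direction, *Lats1* went with the label and *Lats2* against it, and whole-gene counts cannot show whether the floxed exons were deleted. Every direction below is between libraries labelled L1L2-AKO and libraries labelled L1L2-FF. Across the 15674 genes tested, 7.18% were lower and 9.28% higher in L1L2-AKO at an adjusted p under 0.05.

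*Ces1d* was by far the most abundant member in L1L2-FF and far less abundant in L1L2-AKO. It had 8121, 8219 and 5261 counts in L1L2-FF replicates 1, 2 and 3, and 365, 437 and 298 counts in L1L2-AKO replicates 1, 2 and 3. Every L1L2-FF library lay far above every L1L2-AKO library, and L1L2-FF replicate 3 was the lowest of its genotype. On the CPM scale the means were 227.6 ± 50.4 and 11.8 ± 1.85 (SD, n = 3 each). The log2 fold change was −4.27 with a standard error of 0.217, which is 19.3-fold lower in L1L2-AKO.

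*Ces1f*, the second triacylglycerol hydrolase, followed the same course. It had 1650, 2402 and 1187 counts in L1L2-FF and 62, 82 and 47 counts in L1L2-AKO. The genotypes did not overlap, and L1L2-FF replicate 2 was the highest library here, where for *Ces1d* replicates 1 and 2 were close together. The means were 55.1 ± 18.1 and 2.04 ± 0.501 CPM (SD, n = 3 each). The log2 fold change was −4.75 with a standard error of 0.301, or 26.9-fold lower.

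*Ces2g* was counted at about the same level in both genotypes. Its counts were 86, 110 and 73 in L1L2-FF and 92, 123 and 85 in L1L2-AKO, and the genotypes overlapped. The means were 2.83 ± 0.53 and 3.21 ± 0.602 CPM (SD, n = 3 each), and the log2 fold change was 0.18 with a standard error of 0.252.

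*Ces2e* was the only member with more counts in each L1L2-AKO library than in any L1L2-FF library. It had 9, 15 and 11 counts in L1L2-FF and 76, 24 and 18 counts in L1L2-AKO. L1L2-AKO replicate 1 stood apart from the others and carried most of the difference. The means were 0.369 ± 0.089 and 1.23 ± 0.925 CPM (SD, n = 3 each), and the log2 fold change was 1.73 with a standard error of 0.573. Without L1L2-AKO replicate 1 it was 0.91.

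The other 4 members were at or close to 0. *Ces1b* had a count of 0 in all 6 libraries. *Ces1c* had 0, 4 and 2 counts in L1L2-FF and 0, 1 and 0 in L1L2-AKO, *Ces1e* had 1, 3 and 0 against 0, 1 and 0, and *Ces1g* had 0, 0 and 4 against 0, 0 and 0. Summed over libraries and scaled for depth, L1L2-FF had 5.91 times the *Ces1c* counts of L1L2-AKO with an exact 95% interval of 0.717 to 272, and 3.94 times the *Ces1e* counts with an interval of 0.390 to 194. Both intervals run from below to above equal levels, so no direction is read from these counts. All 4 counts of *Ces1g* came from L1L2-FF replicate 3, and no fold is given for it. A count of 0 in a library allows up to 3 counts, or 0.0905 to 0.105 CPM in these libraries.

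Low counts call for care in 1 more respect. In the whole table a value of 2 occurred 8338 times and a value of 1 occurred 4447 times, and 59.9% of the values from 1 to 20 were even, against 49.6% of those from 21 to 100. Whether both reads of a pair were counted is not given in the sources used here. The intervals and floors above treat each count as independent and cover counting error only.

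**Figure D1:**
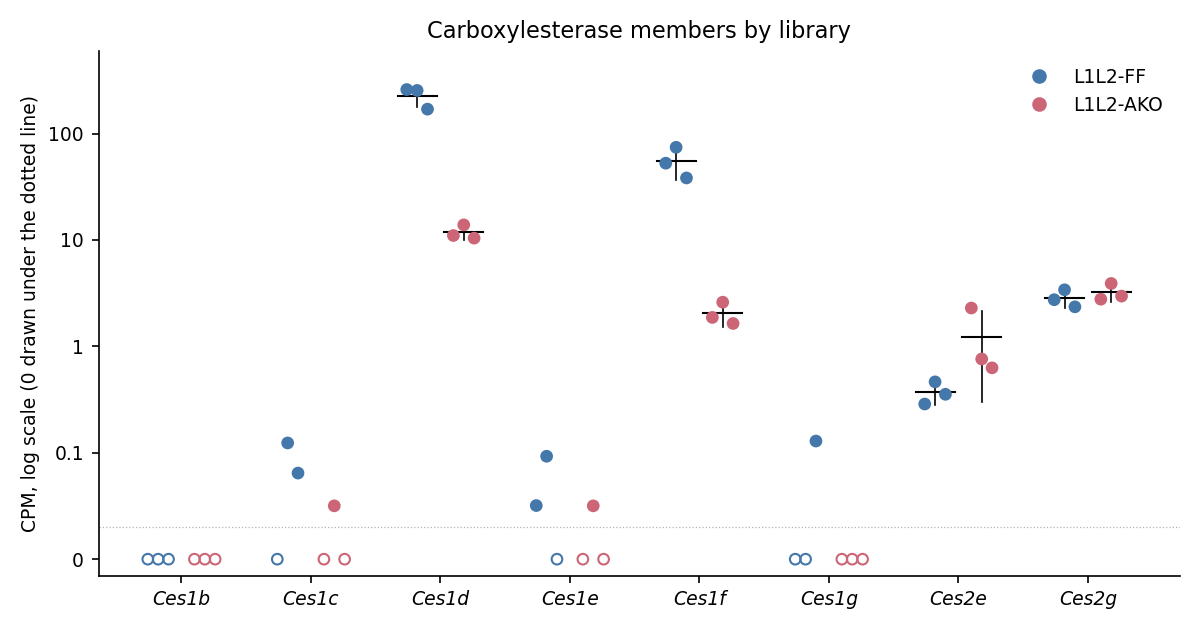
CPM of the 8 members in each library on a log axis, with 3 points per genotype (blue L1L2-FF, red L1L2-AKO) and, for the 4 members counted in every library, the mean (bar) ± SD (line). Open points under the dotted line are libraries with a count of 0. *Ces1d* and *Ces1f* lie far lower in L1L2-AKO, *Ces2g* overlaps, and *Ces2e* is high in L1L2-AKO replicate 1.

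Of the 8 members, 4 passed the filter on low counts, and 2 of these, *Ces1d* and *Ces1f*, were among the genes lower at an adjusted p under 0.05, where 7.18% of all genes tested were called lower. None was called higher, against 9.28% of all genes. DESeq2's Wald test called 1 member, *Ces2e*, higher, where it called 1861 of 24018 genes with any count higher. *Ces1d*, *Ces1f* and *Ces2e* had no overlap between the genotypes, as had 18.4% of all genes tested with L1L2-AKO lower and 18% with L1L2-AKO higher. The members were chosen with this contrast known, so nothing is read from these counts or shares.

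The make-up of the family's counts differed with genotype. All 20 carboxylesterases together had 315, 333 and 211 CPM in L1L2-FF and 18.1, 21.4 and 15.8 CPM in L1L2-AKO. *Ces1d* took 76.3% to 82.2% of these counts in L1L2-FF and 60.9% to 65.9% in L1L2-AKO. *Ces1f* took 16.7% to 22.3% and 10.4% to 12.1%. The share of *Ces2g*, whose own level was similar in both genotypes, was 0.870% to 1.11% in L1L2-FF and 15.4% to 18.8% in L1L2-AKO. *Ces2e* took 12.7% of the family's counts in L1L2-AKO replicate 1 and 3.55% and 3.98% in replicates 2 and 3.

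**Figure D2:**
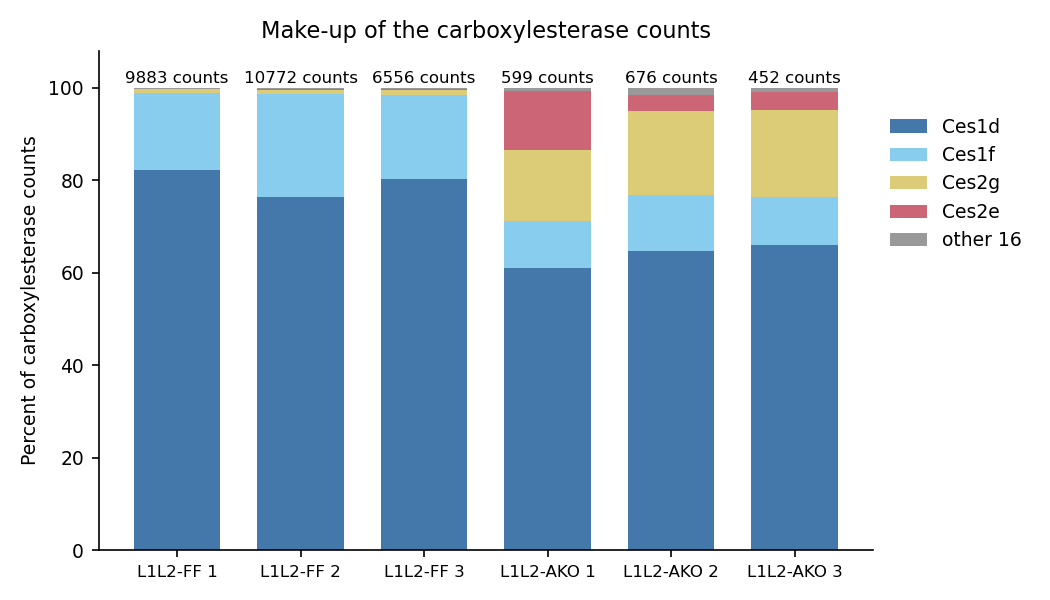
Percent of all carboxylesterase counts given by *Ces1d*, *Ces1f*, *Ces2g*, *Ces2e* and the other 16 genes (stacked bars from 0), in each library, with the total carboxylesterase count above the bar. In L1L2-FF, *Ces1d* and *Ces1f* fill nearly the whole bar, and in L1L2-AKO the Ces2 members take a visible part of a far smaller total.

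The ratio of *Ces1f* to *Ces1d* was lower in each L1L2-AKO library than in any L1L2-FF library, by a small margin. There were 0.203, 0.292 and 0.226 *Ces1f* counts per *Ces1d* count in L1L2-FF and 0.170, 0.188 and 0.158 in L1L2-AKO. The ratios of the genotypes did not overlap, with L1L2-FF replicate 2 standing highest. The closest were 0.203 in L1L2-FF replicate 1 and 0.188 in L1L2-AKO replicate 2, the latter from 82 *Ces1f* counts. Whether the ratio differed beyond counting error was not tested.

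Levels of different genes were compared per kilobase of exon. In L1L2-FF the order was *Ces1d* at 96.1 ± 21.3, *Ces1f* at 16.8 ± 5.52, *Ces2g* at 0.793 ± 0.148 and *Ces2e* at 0.137 ± 0.033 CPM per kb (SD, n = 3 each), and each gap exceeded the spread between libraries. In L1L2-AKO the levels were 4.96 ± 0.779, 0.620 ± 0.153, 0.899 ± 0.169 and 0.455 ± 0.343 CPM per kb for the same genes in the same sequence. There *Ces1d* was still the highest, and *Ces2g*, *Ces1f* and *Ces2e* overlapped. Among 15646 genes ranked per kilobase from the highest, *Ces1d* stood at 427 in L1L2-FF and 7070 in L1L2-AKO, and *Ces1f* at 2722 and 12802. *Ces2g* stood at 12313 and 12130. With the length of the longest transcript in place of all exons, *Ces1f* was at 28.6 CPM per kb in L1L2-FF and 1.06 in L1L2-AKO.

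Libraries of 1 genotype also differed in these genes. The pooled standard deviation of log2 CPM within a genotype was 0.289 for *Ces1d*, 0.412 for *Ces1f*, 0.258 for *Ces2g* and 0.707 for *Ces2e*, against a median of 0.235 over all genes tested. *Ces2e* was more variable than 93.3% of the genes, and its counts were the lowest of the 4.

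Outside the 8 members, the family was barely counted. Of the 12 other carboxylesterases, 7 had a count of 0 in all libraries: *Ces1h*, *Ces2c*, *Ces2d-ps*, *Ces2f*, *Ces2h*, *Ces3b* and *Ces5a*. *Ces4a* had 14, 2 and 18 counts in L1L2-FF and 0, 0 and 0 in L1L2-AKO. L1L2-FF replicate 2 lay close to the L1L2-AKO libraries, and no fold is given for counts this low. *Ces4a* did not pass the filter on low counts. With no filter its adjusted p was 0.0269 by edgeR's quasi-likelihood test, and over the alternatives that could test it adjusted p ranged from 0.00382 to 0.104, and it did not pass when any 1 L1L2-AKO library was left out. *Ces3a*, another liver carboxylesterase, had 0, 11 and 0 counts against 0, 0 and 2, *Ces2b* had 2, 4 and 0 against 2, 6 and 2, *Ces2a* had 0, 2 and 0 against 0, 2 and 0, and *Ces1a* had 0, 0 and 0 against 2, 0 and 0.

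Most genes that lie beside the family were not called in either direction. The 8 Ces1 genes from *Ces1a* to *Ces1h* span chr8:93020214-93379725 and lie on the minus strand, and the 8 Ces2 genes span chr8:104734003-105021178 on the plus strand. Within 500 kb of either cluster, 34 other genes were tested. Of these, 2 rose and 2 fell, and their median log2 fold change was −0.02, the same as over all genes tested. None of the 4 beside the Ces1 cluster was called. *Lpcat2*, which encodes a phospholipid acyltransferase, is 101 kb away and had a log2 fold change of 0.57 with adjusted p = 0.391 by edgeR's quasi-likelihood test. *Mmp2*, a gelatinase gene 167 kb away, was at 64.1, 104 and 41.5 CPM in L1L2-FF and 38.8, 38.9 and 32.2 CPM in L1L2-AKO. Its log2 fold change was −0.93 with adjusted p = 0.0662. The nearest tested gene on the other side, *Gnao1*, had a log2 fold change of −0.03 at 430.2 kb.

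Beside the Ces2 cluster, *Fhod1*, a formin gene, rose by 1.25 on the log2 scale and *B3gnt9*, a glycosyltransferase gene, by 1.54, with adjusted p of 0.000525 and 0.00162 by edgeR's quasi-likelihood test. *Cmtm4* fell by 0.54 and *Lrrc36* by 1.80, with adjusted p of 0.0120 and 0.0151. The nearest tested genes on the low side, *Ciao2b* and *Rrad*, had log2 fold changes of −0.03 and −0.69, and those on the high side, *Cbfb* and *D230025D16Rik*, had 0.30 and −0.23, with adjusted p from 0.0907 to 0.949. The calls of *Cmtm4* and *Lrrc36* were lost without L1L2-FF replicate 1 or L1L2-AKO replicate 3, which left 2 neighbours called, and that of *Lrrc36* also without L1L2-AKO replicate 2.

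**Figure D3:**
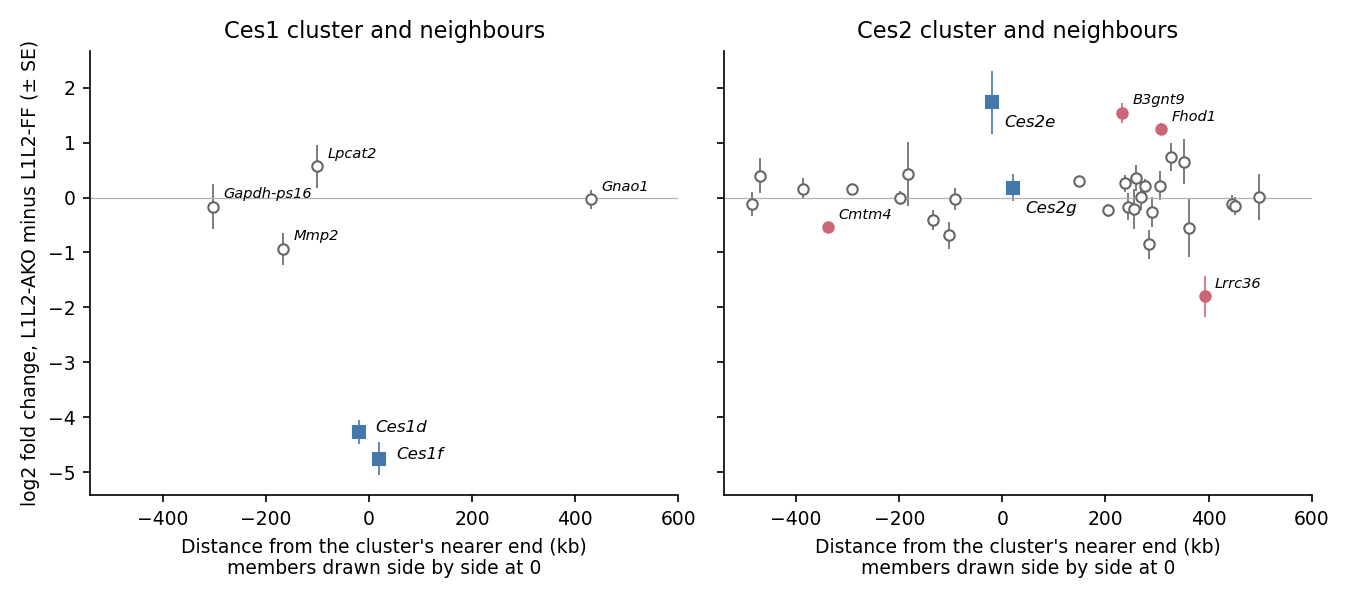
Log2 fold change (L1L2-AKO minus L1L2-FF) ± standard error of genes tested within 500 kb of the Ces1 (left) and Ces2 (right) cluster, by distance from the nearer end, with tested members as blue squares at 0 and neighbours past the threshold in red. *Ces1d* and *Ces1f* lie below −4, and the 34 neighbours lie between −1.80 and 1.54.

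Among genes outside the family, the profiles most like those of *Ces1d* and *Ces1f* were measured as the root mean square difference of centred log2 CPM over the 6 libraries, among 10066 genes whose average log2 CPM reached 3. The same 5 genes came first for both. For *Ces1d* they were *Amy1*, an amylase gene, at 0.307, *Cfd*, the adipsin gene, at 0.316, *Rasd1* at 0.611, *Acp5* at 0.616 and *Kcnk2* at 0.648, against a median of 2.15 over the candidates. For *Ces1f* the differences were 0.154, 0.436, 0.838, 0.880 and 0.893, against a median of 2.37. *Ces1d* and *Ces1f* differed from each other by 0.276. *Amy1* had 2805, 3599 and 2255 counts in L1L2-FF and 93, 116 and 84 in L1L2-AKO. *Cfd*, one of the most abundant adipocyte transcripts, had 114100, 161578 and 78019 counts in L1L2-FF and 5441, 6352 and 7669 in L1L2-AKO. In these genes too, no L1L2-AKO library reached an L1L2-FF library. They were picked for their likeness over these libraries, so their differences are a description as well.

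**Figure D4:**
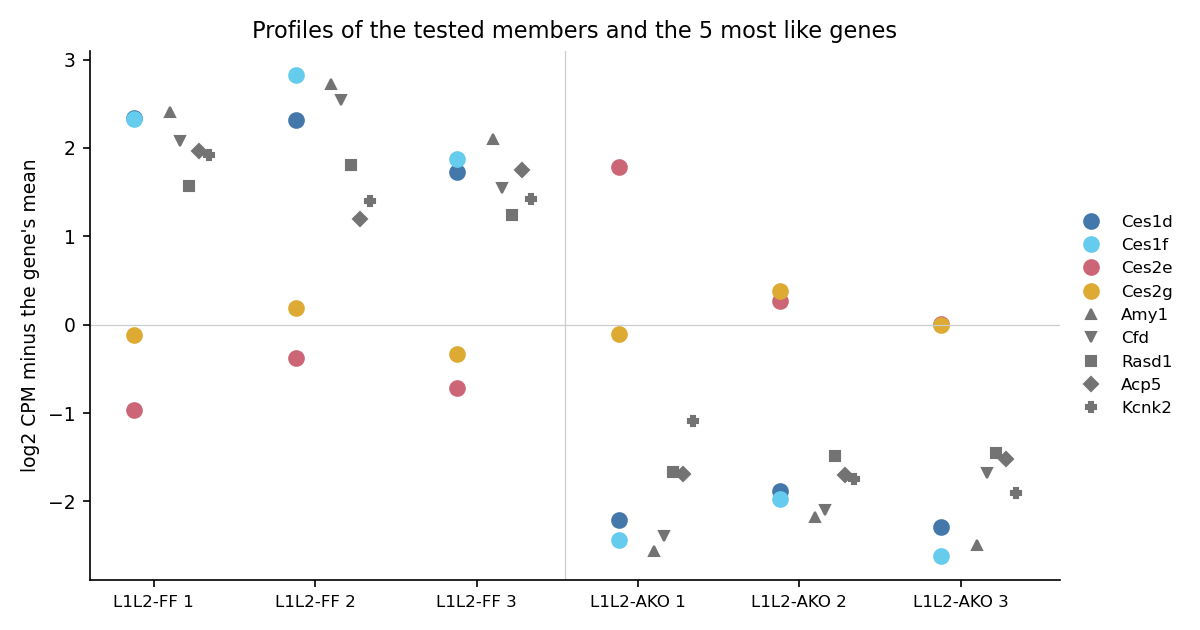
Log2 CPM minus each gene's own mean, in each library, for the 4 tested members (coloured) and the 5 genes most like *Ces1d* and *Ces1f* (grey symbols, shifted sideways for legibility). *Ces1d*, *Ces1f* and the 5 genes are above 1 in each L1L2-FF library and below −1 in each L1L2-AKO library, and *Ces2g* stays near its mean in all 6.

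Enzymes of related function moved in both directions. Of 16 genes of neutral lipid hydrolysis, all tested, 4 rose and 1 fell, with a median log2 fold change of −0.23. *Lipa*, lysosomal acid lipase, rose from 75.3 ± 4.77 to 114 ± 8.5 CPM (SD, n = 3 each), *Nceh1*, a cholesteryl ester hydrolase gene, from 3.92 ± 0.65 to 6.84 ± 0.773, and *Lipg*, endothelial lipase, from 4.15 ± 1.6 to 11.7 ± 5.07. *Aadac*, which encodes arylacetamide deacetylase, another serine esterase of the endoplasmic reticulum, rose from 0.0625 ± 0.0619 to 0.872 ± 0.341 CPM. *Pnpla3* fell by 2.06 on the log2 scale. Adjusted p of these 5 lay between 0.00988 and 0.0484 by edgeR's quasi-likelihood test, and the 5 calls became 0 when L1L2-FF replicate 1 was left out. They became 3, 1 and 2 when L1L2-AKO replicates 1, 2 and 3 were left out in turn, and 3 when L1L2-FF replicate 3 was. DESeq2's Wald test called 4 genes of the list higher and 4 lower. With library size alone, edgeR called 3 higher and 3 lower. *Pnpla2*, the adipose triglyceride lipase gene, was at 1806, 1559 and 1465 CPM in L1L2-FF and 715, 1108 and 1316 in L1L2-AKO, with adjusted p = 0.117. *Lpl*, *Mgll* and *Plin1* were the other abundant genes of the list, with log2 fold changes of 0.52, −0.30 and −0.65 and adjusted p of 0.272, 0.337 and 0.0700. *Pnpla2*, *Lipe*, *Hilpda* and *Plin1* were not called, but each was lower in every L1L2-AKO library than in any L1L2-FF library. *Lpl*, also not called, was higher in every L1L2-AKO library than in any L1L2-FF library.

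Of 22 genes of xenobiotic metabolism, 20 were tested, 5 rose and 6 fell, with a median log2 fold change of −0.50. *Cyp2e1*, a cytochrome P450 gene, had 14.0, 3.43 and 17.8 CPM in L1L2-FF and 0, 0.190 and 0.279 CPM in L1L2-AKO, a log2 fold change of −6.24 with a standard error of 0.867 and adjusted p = 0.00290 by edgeR's quasi-likelihood test. *Por*, which encodes the reductase that serves cytochromes P450, fell by 1.20, and *Adh1*, *Aox1*, *Gsta4* and *Sult1a1* fell by 1.21, 0.69, 1.76 and 1.49 on the log2 scale. *Gstm1*, a glutathione transferase gene, rose by 2.62, *Aldh1a1* by 2.50, *Ephx1* by 1.66 and *Cyp4b1* by 1.40. The call of *Aox1* was lost without L1L2-AKO replicate 1 or 2 or L1L2-FF replicate 1, and that of *Cyp4b1* without L1L2-AKO replicate 2 or 3 or L1L2-FF replicate 1 or 3. With 1 library left out, 8 to 12 genes of the list were called. *Ephx2* had a log2 fold change of −0.49 with adjusted p = 0.185.

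Of 6 cholinesterase-like relatives, 4 were tested. *Bche*, butyrylcholinesterase, fell from 235 ± 45.0 to 112 ± 23.7 CPM (SD, n = 3 each), with adjusted p = 0.0113 by edgeR's quasi-likelihood test, which did not pass without L1L2-FF replicate 1. Of these genes, 2 were called when L1L2-AKO replicate 1 or L1L2-FF replicate 3 was left out. As many were called with DESeq2's Wald test, with no filter, with at least 10 counts in every library and with the replicate block. *Ache*, acetylcholinesterase, had a log2 fold change of −1.45 with adjusted p = 0.0542, *Nlgn3* −0.90 with 0.344 and *Nlgn2* 0.02 with 0.979.

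Of 14 transcription factors of adipocytes and of the xenobiotic response, 10 were tested and 3 fell. *Pparg*, the adipocyte nuclear receptor gene, was at 384, 362 and 379 CPM in L1L2-FF and 264, 239 and 246 in L1L2-AKO, a fall of 0.59 on the log2 scale. *Ppara* fell by 0.84 and *Srebf1* by 0.73. Adjusted p of the 3 lay between 0.0122 and 0.0267 by edgeR's quasi-likelihood test, and none passed without L1L2-AKO replicate 2 or 3. *Cebpa* and *Nr3c1* had log2 fold changes of −0.37 each, with adjusted p of 0.211 and 0.0733. *Nr1i2*, the pregnane X receptor gene, had a count of 0 in all libraries, and *Nr1i3* had 1 to 3 counts in each.

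**Figure D5:**
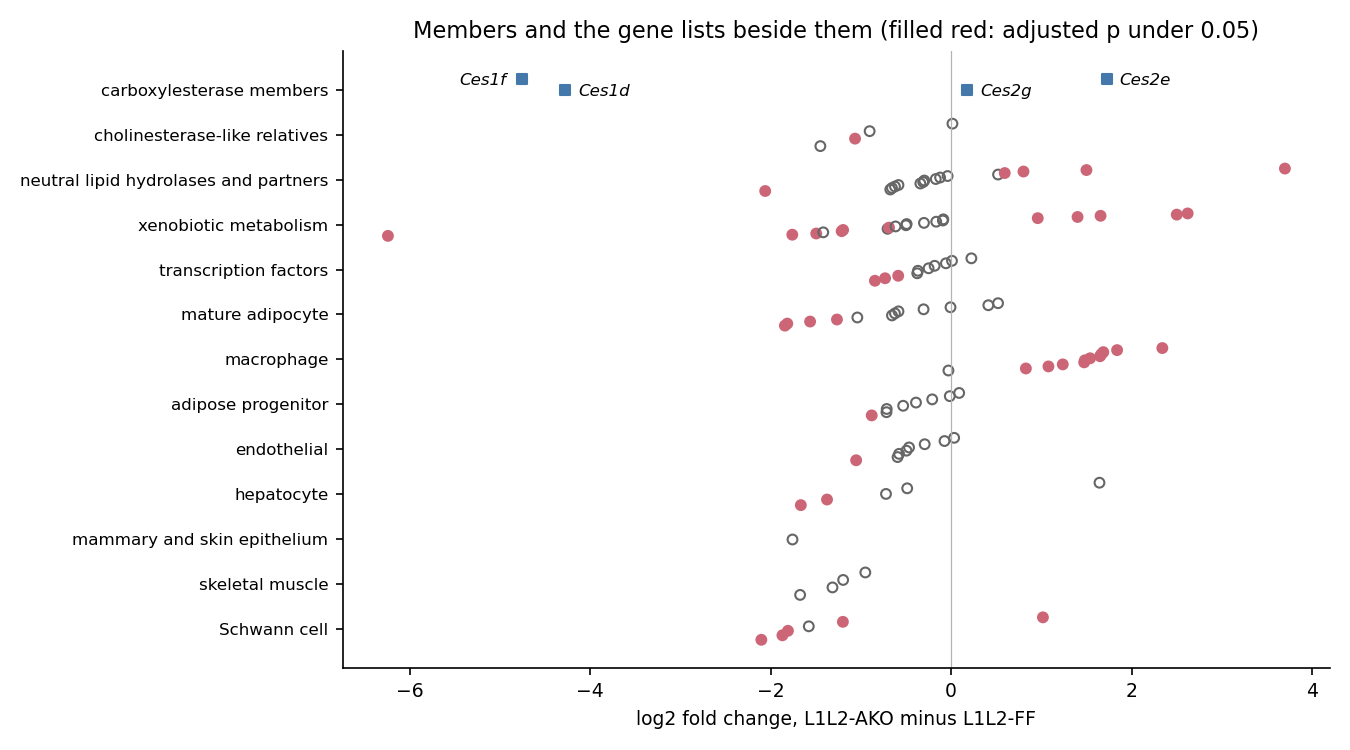
Log2 fold change (L1L2-AKO minus L1L2-FF) of the 4 tested members (blue squares) and of each tested gene of 12 gene lists (circles, filled red at an adjusted p under 0.05 by edgeR's quasi-likelihood test). *Ces1d* and *Ces1f* lie to the left of every gene shown except *Cyp2e1*.

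In bulk RNA, fewer adipocytes in a pool and less RNA per adipocyte cannot be told apart. All 12 adipocyte markers were tested and none was at 0, and their summed level was 24676 to 34392 CPM in L1L2-FF and 25858 to 34443 CPM in L1L2-AKO. Of these 12, 4 fell, *Adipoq* by 1.26, *Retn* by 1.84, *Slc2a4* by 1.81 and *Dgat2* by 1.56 on the log2 scale, and none rose. The call of *Dgat2* was lost without L1L2-AKO replicate 2 or 3 or L1L2-FF replicate 1 or 3, and DESeq2's Wald test called 7 of the 12 lower. The most abundant of them, *Lpl* and *Fabp4*, were not called. *Lpl* was the largest part of the sum, at 8400 to 13956 CPM in L1L2-FF and 14180 to 20188.5 CPM in L1L2-AKO. *Adipoq*, *Plin1*, *Lipe*, *Retn*, *Pnpla2*, *Slc2a4* and *Dgat2* were each lower in every L1L2-AKO library than in any L1L2-FF library. The similar sums therefore do not show that the other markers were unchanged.

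Markers of other cells moved as well. Of 12 macrophage markers, 11 rose, and their summed level was 278 to 536 CPM in L1L2-FF and 1003 to 1111 CPM in L1L2-AKO. Of 6 Schwann cell markers, 4 fell, among them *Sox10* by 1.81 and *Mbp* by 1.20, and *Pmp22* rose by 1.02, with sums of 816 to 1664 and 751 to 1380 CPM. Of 8 progenitor markers *Pi16* fell by 0.88, with sums of 1778 to 2473 and 1159 to 1801 CPM. *Col15a1* was the largest part of these sums, at 1037 to 1945 CPM in L1L2-FF and 684 to 1313 CPM in L1L2-AKO, and it overlapped. *Pi16*, *Cd34* and *Dcn* were each lower in L1L2-AKO without overlap, and *Pdgfra*, *Dpp4*, *Ly6a* and *Lum* overlapped. Of 8 endothelial markers *Vwf* fell by 1.05, with sums of 1791 to 2387 and 1056 to 2282 CPM. Liver expresses many carboxylesterases, and of 10 hepatocyte markers 5 were tested. *Alb* had 1053, 1097 and 980 counts in L1L2-FF and 338, 374 and 464 counts in L1L2-AKO and fell by 1.37, and *Serpina1a* fell by 1.66. The hepatocyte sum was 36.1 to 39.3 against 12.3 to 20.5 CPM. It was lower in each L1L2-AKO library than in any L1L2-FF library, as *Ces1d* and *Ces1f* were, and *Alb* gave most of it. Means of *Ttr*, *Fgb*, *Cyp3a11* and *Tat* were higher in L1L2-AKO and those of *Apoa1*, *Apoa2*, *Ahsg* and *Hpx* lower, each with overlapping genotypes. None of the 10 was at 0 in all libraries. Of 6 muscle markers 4 were tested, and of 6 epithelial markers *Cdh1* alone, and edgeR's quasi-likelihood test called none of these, with unadjusted p of 0.0125 for *Acta1*, 0.0157 for *Mylpf* and 0.0234 for *Cdh1*. The sums were 10.9 to 18.2 against 2.82 to 8.76 CPM for muscle and 2.39 to 6.19 against 1.146 to 1.3005 CPM for epithelium, lower in each L1L2-AKO library than in any L1L2-FF library. *Acta1*, *Mylpf* and *Cdh1*, and *Krt5* and *Epcam*, which did not pass the filter, also had no overlap between the genotypes. DESeq2's Wald test called 2 muscle markers and 1 epithelial marker lower. Macrophage calls numbered 7 without L1L2-FF replicate 1 and 8 to 11 when any other library was left out. Schwann cell calls numbered 1 when L1L2-AKO replicate 3 was left out, and 2 when L1L2-AKO replicate 1 or L1L2-FF replicate 2 or 3 was. The calls of *Pi16*, *Vwf* and *Serpina1a* were lost without L1L2-AKO replicate 2 or 3 or L1L2-FF replicate 1, that of *Vwf* also without L1L2-FF replicate 2 and that of *Serpina1a* without L1L2-FF replicate 3. The part of these cells in the fall of *Ces1d* and *Ces1f* was not tested.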

How the data were processed

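The members and the gene lists were chosen with earlier results of these data known. Adipocytes were released with collagenase, floated and lysed, and mRNA was captured with oligo(dT). The authors sequenced paired ends on a BGISEQ-500 and aligned them to mm10 with HISAT2 2.1.0, and their notes also name StringTie 1.3.5. The deposited file lists unnormalized whole-number counts by gene symbol. The annotation, the counting program and its strand setting are not given in the sources used here. Fold changes and counts of overlapping or near-identical genes could depend on them.

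Groups and replicate numbers came from the labels. Counts were tested in R 4.3.3 with edgeR 4.0.16: filterByExpr (minimum count 10, minimum total 15) kept 15674 genes and left out 21710, followed by TMM normalization and the quasi-likelihood test, two-sided, adjusted over all tested genes at a threshold of 0.05. CPM uses the TMM library sizes. The standard error of a log2 fold change was its size over the square root of F. At 3 against 3 libraries, permutation cannot give p below 0.1. Exon lengths and positions came from GENCODE M21. Ratios of summed counts have exact binomial (Clopper-Pearson) 95% intervals. Alternatives were DESeq2 1.42.0 (size factors, Wald test), library size alone, upper-quartile factors, no filter, at least 10 counts in every library, a replicate block, leaving out each library, and the longest transcript as length. Counts of replicates differed beyond sampling noise. Replicates are pools of mice, and the labels do not say more about how pools were formed.

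Named genes were all members, all other carboxylesterases, neighbours past the threshold and the 2 nearest tested on each side of a cluster, and of each list the 4 most abundant genes and those past the threshold, summarized by counts where many. Of the genes drawn by this rule, 2 are not reported here. The lists were other carboxylesterases, cholinesterase-like relatives, neutral lipid hydrolases and partners, xenobiotic metabolism, transcription factors, and markers of mature adipocytes, macrophages, adipose progenitors, endothelium, hepatocytes, mammary and skin epithelium, skeletal muscle and Schwann cells. Genes like a member were the 5 nearest by centred log2 CPM, with a prior count of 2. Coding sequences and shared stretches were computed from GENCODE M21 transcripts with Biopython 1.88.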

Additional observations from a re-analysis of the deposited data

How the results depend on the processing

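The log2 fold changes of *Ces1d* and *Ces1f*, whose contrast chose the members, ran from −4.45 to −4.17 and from −4.96 to −4.48 over the alternatives, the log2 ratio of mean CPM included. The log2 fold change of *Ces2e* ran from 0.91 to 2.05, and it was not among the genes with at least 10 counts in every library. That of *Ces2g* ran from 0.02 to 0.33. Of the members, 2 were called, and 3 with DESeq2's Wald test, which added *Ces2e* as higher. Over all genes, 2580 were called (2514 with the replicate block, 3374 with DESeq2's Wald test, 1281 to 2845 with 1 library left out). Leaving out L1L2-FF replicate 1, L1L2-AKO replicate 2 or L1L2-AKO replicate 3 gave 1290, 1281 and 1374 calls. Of neighbours, 4 were called, 7 with DESeq2's Wald test, 8 with the replicate block and 2 to 6 with 1 library left out. Of other carboxylesterases, 0 were called by edgeR, none having passed the filter, and 1, *Ces4a*, with no filter, with DESeq2's Wald test and without L1L2-FF replicate 2 (0 to 1 with 1 library left out). Of the genes of the 4 tested pathway lists, 20 were called, 23 with the replicate block and 10 to 22 with 1 library left out. Fewer libraries enter a fit with 1 left out. The cause of the other changes was not tested. Per kilobase of the longest transcript, levels of *Ces1d*, *Ces1f* and *Ces2g* were higher in both genotypes, *Ces1f* by the largest factor. With 3 libraries per genotype, the 2.29 CPM of *Ces2e* in L1L2-AKO replicate 1 cannot be judged against its group.

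Whether replicate numbers pair the libraries cannot be settled with 3 libraries per genotype. Deviations from the genotype means correlated across genes at 0.188, 0.255 and −0.0544 for equal replicate numbers 1, 2 and 3. L1L2-FF replicates 1 and 2 each correlated best with the L1L2-AKO replicate of the same number. L1L2-FF replicate 3 correlated best with L1L2-AKO replicate 1, at 0.211. With the replicate block, *Ces1d* and *Ces1f* had log2 fold changes of −4.26 and −4.74.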
